A study of Mus musculus with 18 samples.

Results

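The comparison described here is that of brown adipocytes given lipase inhibitors and then vehicle with brown adipocytes given vehicle only, that is, of cells whose unstimulated lipolysis was blocked with cells in which it ran on. It rests on 6 of the 18 RNA-seq samples of the series, the 3 labelled Lipase Inh. + Vehicle and the 3 labelled Vehicle, chosen by their titles and matched to the count columns by the sample number in the labels. All samples were BAT-LgT cells, a wild-type (WT) mouse brown preadipocyte line immortalised with SV40 large T antigen, differentiated in culture and used on day 7. The cells received an inhibitor of adipose triglyceride lipase (ATGLi) together with an inhibitor of hormone-sensitive lipase (HSLi), or no inhibitor, for 1 h, and were then kept with vehicle (DMSO) for 3 h before total RNA was taken. The other 12 samples went through the same pretreatment with or without inhibitors and then 3 h with 100 nM isoproterenol (ISO, a β-adrenergic agonist) or with SR-3420, at 10 µM by the labels and at another dose by the study's own description (a ligand of ABHD5 that activates adipose triglyceride lipase without the receptor), in 3 samples a group. The line is a single immortalised culture, so the samples are separate experiments on the same cells, not separate animals.

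Lipolysis is the stepwise release of fatty acids from the triglyceride of lipid droplets. Adipose triglyceride lipase, helped by its coactivator ABHD5, removes the first fatty acid, and hormone-sensitive lipase the next. It runs at a low rate in unstimulated brown adipocytes and is driven up by β-adrenergic signalling. The fatty acids released are fuel and precursors, are esterified again, and act on nuclear receptors and on receptors of the cell surface. The transcription factor SREBP2 drives the genes of cholesterol synthesis when sterols in the endoplasmic reticulum are low, SREBP1 drives those of fatty acid synthesis, and hypoxia-inducible factor (HIF) drives glycolysis and the prolyl hydroxylases that limit HIF itself.

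The Vehicle libraries held 10398646 to 14281459 gene counts and the inhibitor libraries 11195260 to 15824621, and Scd1, a fatty acid desaturase, was the most counted gene in all 6. No 2 libraries of a group agreed within sampling noise. The cells had the transcripts of mature adipocytes, whose 12 marker genes summed to 16600 to 19170 CPM (counts per 1000000, after scaling to the library's effective size) in Vehicle and 14720 to 15810 with inhibitors. The 12 brown adipocyte markers summed to 480 to 681 and 491 to 686 CPM, with Ucp1, the uncoupling protein that defines brown fat, at 2.69 ± 0.430 and 2.37 ± 0.852 CPM (SD, n = 3 each) and Lhx8 at 0 counts. Markers of macrophages summed to at most 10.9 CPM, of endothelial cells to at most 1.31 and of skeletal muscle to at most 14.1, with Ptprc, C1qa, Cdh5, Tie1 and Myog among those at 0 counts in all 6 libraries. Vehicle replicate 1 stood apart from the other 5 libraries in how its counts depended on gene length, and the calls lost without it are given beside the results. In bulk RNA, fewer cells of a kind and less RNA per cell cannot be told apart.

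Few genes were called between unstimulated cells with and without lipase inhibitors, and nearly all of them changed by less than 2-fold. Effects of the inhibitors other than on lipolysis were not tested. Of 12156 genes tested, 59 (0.485%) rose and 52 (0.428%) fell at an adjusted p of at most 0.05 (edgeR's quasi-likelihood test, Benjamini-Hochberg adjustment). The study's second threshold, a change of 2-fold or more, left 1 higher gene (0.00823%), Lancl3, and 5 lower genes (0.0411%), Ak4, Ffar4, Sema3g, Egln3 and Gpr35. The median size of a rise was 0.44 on the log2 scale, or 1.36-fold, and 42 of the 59 rises were smaller than 1.5-fold. The median fall was 0.51, or 1.42-fold, and 31 of the 52 falls were smaller than 1.5-fold. In all 111 genes the groups did not overlap, which by itself fixes the same direction in the 3 same-numbered pairs of samples. The genes were called on these same samples, so neither adds support to the calls. Such separation alone was common, since the 3 inhibitor samples lay above the 3 Vehicle samples for 8.03% of all genes and below them for 7.4%. At an unadjusted p of at most 0.05, 746 genes were higher and 615 lower. The counts depended on the fit, with 122 higher and 99 lower in DESeq2, 24 and 23 when only the 6 samples set the spread, and 29 and 40 when libraries were scaled to their total counts, which turned the majority of calls from higher to lower. Leaving out Vehicle replicate 1 left 28 and 28, leaving out inhibitor replicate 1 left 29 and 28, and leaving out inhibitor replicate 2 left 35 higher genes.

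**Figure D1:**
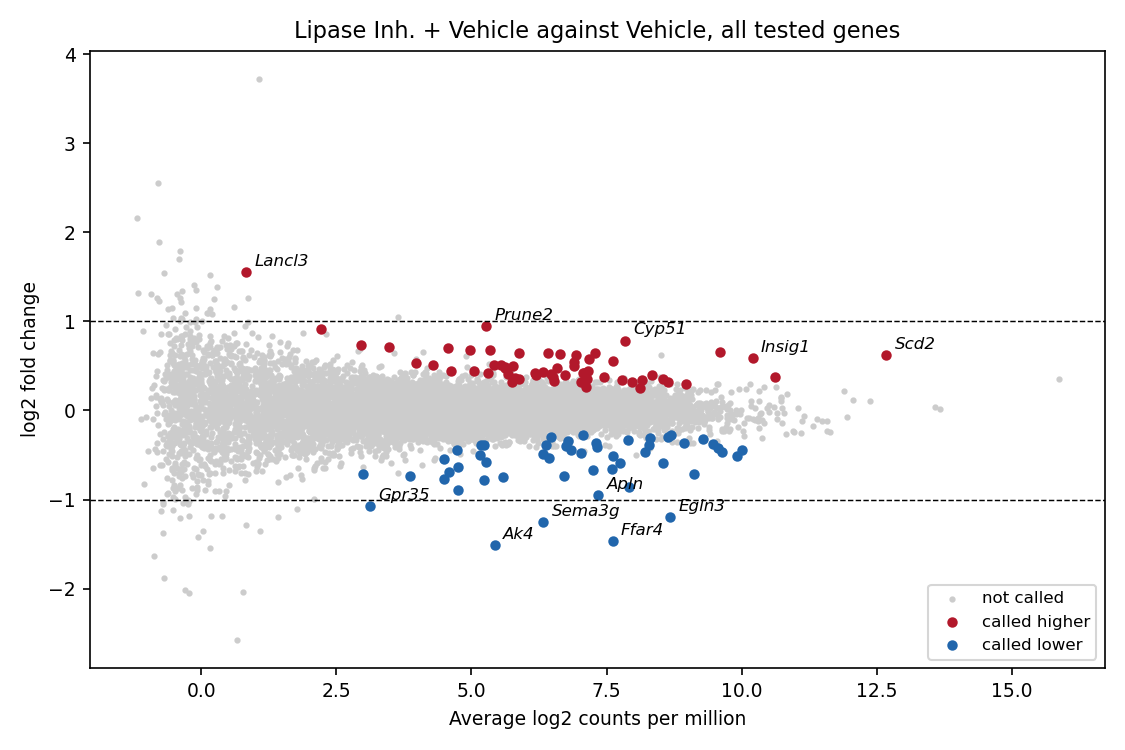
Log2 fold change of Lipase Inh. + Vehicle against Vehicle for each of the 12156 tested genes, plotted against its average log2 CPM, with the 59 genes called higher in red, the 52 called lower in blue and dashed lines at a 2-fold change. Only 6 coloured points lie outside the dashed lines, and the uncalled genes with large changes sit at low counts.

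Among the 5 genes that fell by 2-fold or more were a fatty acid receptor, an adenylate kinase and a prolyl hydroxylase. In each the groups lay apart, as in every called gene. Ffar4 (NM_181748, mm9 chr19:38171569-38188753, plus strand) encodes a cell-surface receptor for long-chain fatty acids. It stood at 108.3, 112.0 and 99.4 CPM in the 3 Vehicle samples and at 38.2, 43.0 and 34.6 CPM with inhibitors. The log2 fold change was -1.47 ± 0.10 (SE), a 2.77-fold fall with an adjusted p of 7.74e-09. Ak4 (NM_001177602, chr4:101091894-101140376, plus strand), a mitochondrial adenylate kinase and HIF target, was counted at 36.3, 35.3 and 31.7 CPM in Vehicle and at 12.8, 11.8 and 11.8 CPM with inhibitors. Its log2 fold change was -1.51 ± 0.11 (adjusted p = 4.89e-08), and the spread within the inhibitor group was 0.563 CPM. Egln3 (NM_028133, chr12:55279968-55304861, minus strand), a HIF prolyl hydroxylase that HIF itself induces, went from 266.4, 294.4 and 265.4 CPM to 118.6, 142.2 and 99.5 CPM. That was a log2 fold change of -1.20 ± 0.10 (adjusted p = 1.16e-07). These 3 genes passed the test in each of the 18 other fits tried.

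Sema3g (NM_001025379, chr14:32031059-32042697, plus strand), a secreted class 3 semaphorin, was at 38.4, 37.2 and 29.4 CPM in Vehicle and at 13.2, 18.4 and 12.9 CPM with inhibitors. The log2 fold change was -1.26 ± 0.15 (adjusted p = 4.61e-05). Sema3g was the 1 gene called of the 13 tested semaphorins and neuropilins, whose median log2 fold change was 0.09. Of all genes 0.428% were called lower. Apln, the adipokine apelin, just missed the 2-fold threshold. It stood at 143.8, 150.5 and 144.2 CPM in Vehicle and at 70.5, 86.8 and 69.8 CPM with inhibitors, a log2 fold change of -0.95 ± 0.08 (adjusted p = 1.49e-07). Apln was the 1 gene called of 16 adipokine and batokine genes, whose median was -0.07. Gpr35 and Lancl3 passed both thresholds at low counts. Gpr35, a receptor for metabolites such as kynurenate, was at 4.30, 3.40 and 4.41 CPM in Vehicle and 1.75, 1.65 and 2.25 CPM with inhibitors (log2 fold change -1.07 ± 0.24, adjusted p = 0.026). Lancl3 was at 0.506, 1.00 and 0.265 CPM in Vehicle and 1.24, 2.06 and 2.02 CPM with inhibitors (1.56 ± 0.37, adjusted p = 0.044). Without Vehicle replicate 1 both calls were lost, at adjusted p = 0.167 for Gpr35 and 0.296 for Lancl3.

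**Figure D2:**
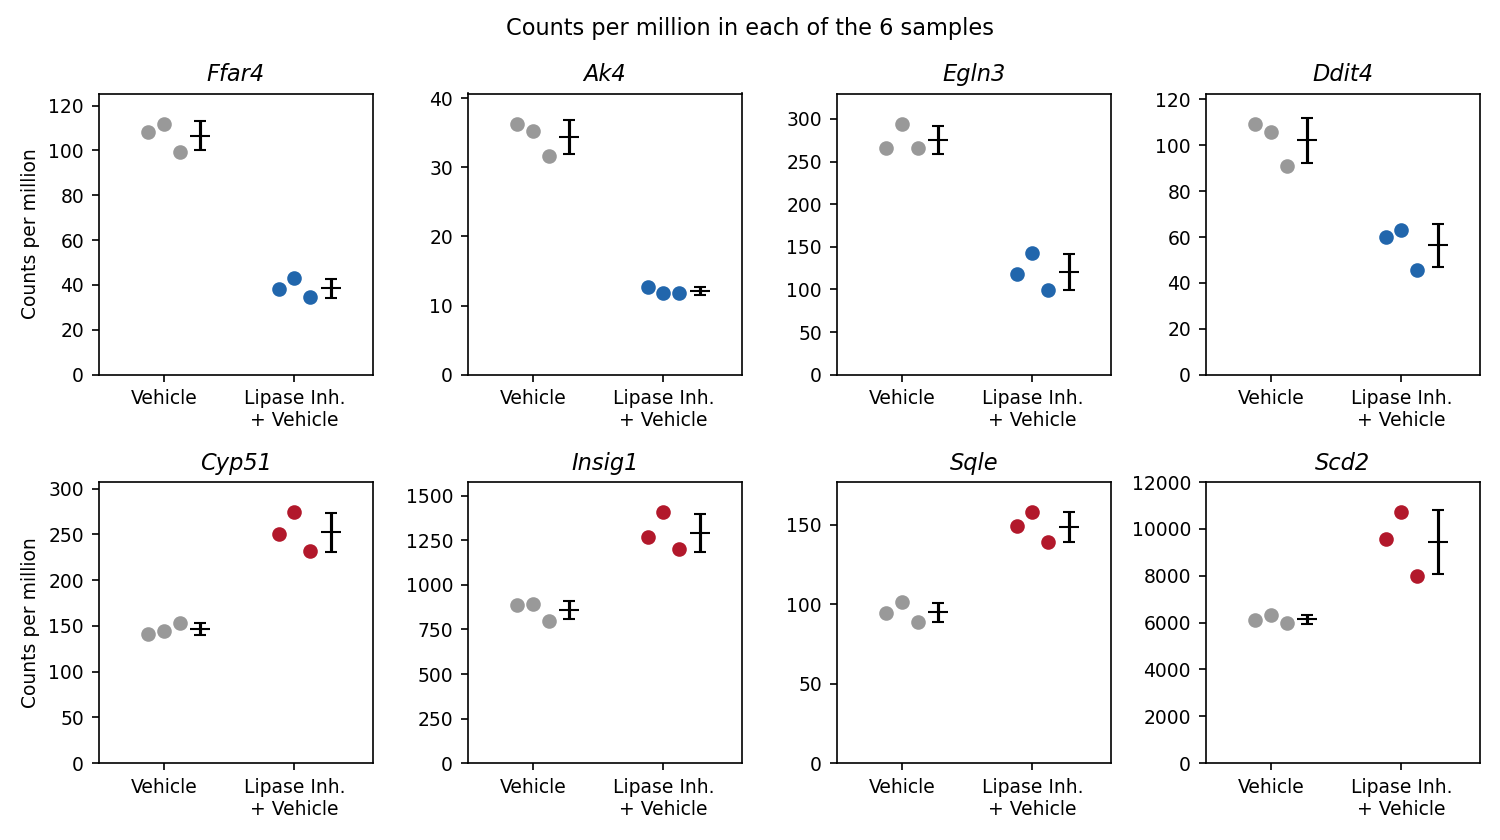
CPM of 4 genes that fell (blue) and 4 that rose (red) in each of the 3 Vehicle samples (grey) and 3 Lipase Inh. + Vehicle samples, from a zero baseline, with the mean and SD of each group in black. In all 8 panels the 3 coloured points lie on one side of the 3 grey ones, and the widest gap is the 2.85-fold one of Ak4.

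Members of the glycolytic and non-glycolytic lists of HIF targets accounted for 18 of the 52 genes that fell, and none of the 49 tested members rose. These lists, like the other gene lists here, were drawn up with earlier results of these data known. Their counts are therefore a description and no independent support. Of 20 glycolytic targets 8 fell, beside 0.428% of all genes. The median log2 fold change was -0.31 over the list and -0.002 over all genes. The plasma membrane carriers moved with the enzymes. Slc16a3, the lactate exporter MCT4, fell from 12.5 ± 0.705 to 6.79 ± 0.850 CPM (SD, n = 3 each), a log2 fold change of -0.89 ± 0.13 (adjusted p = 0.00045). Slc2a1, the glucose transporter GLUT1, fell from 102 ± 7.37 to 64.3 ± 2.81 CPM (-0.67 ± 0.15, adjusted p = 0.025). Hk2, the hexokinase that traps glucose, fell by 0.59 on the log2 scale, and Pfkfb3, which makes the activator of phosphofructokinase, fell from 538 to 377 CPM (-0.51 ± 0.07, adjusted p = 0.0003). The other 4 were Gapdh, Ldha, Tpi1 and Pgam1, with log2 fold changes of -0.79 to -0.32. Those 4 have processed pseudogene copies in the mouse genome, and how shared reads were counted is uncertain, so their levels are uncertain too. Of the 12 members not called, Pfkl, Aldoa, Pgk1, Pkm and Pdk1 were among the 10 with negative values, while Pfkfb4 and Eno2 had values of 0.08 ± 0.11 and 0.36 ± 0.27.

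Of 29 non-glycolytic HIF targets 10 fell, beside 0.428% of all genes, and the median of the list was -0.30. Beside Ak4 and Egln3 these were Ddit4, an inhibitor of mTORC1 signalling, P4ha1 and P4ha2, the prolyl hydroxylases of collagen, the histone demethylase Kdm3a, Egln1, Ankrd37, Higd1a and Narf. Ddit4 was counted at 109.5, 105.7 and 91.1 CPM in Vehicle and at 60.1, 63.3 and 45.8 CPM with inhibitors (log2 fold change -0.86 ± 0.13, adjusted p = 0.00045). P4ha1 stood at 159.9, 153.2 and 168.3 CPM and at 100.4, 103.8 and 100.4 CPM, 1.58-fold lower and with little spread in either group. Egln1 fell by only 0.37, from 405 ± 7.22 to 314 ± 4.45 CPM (adjusted p = 0.0017). The list was not uniform. Vegfa, the angiogenic growth factor, had a log2 fold change of -0.12 ± 0.08 (95% interval -0.29 to 0.05), Car9 of -0.06 ± 0.15 and Lox of 0.18 ± 0.11, and none of these passed the test. Ankrd37 overlaps Ufsp2 on the other strand, and without a stated use of strand their reads cannot be told apart. Both lists kept negative medians in every fit, but the number of glycolytic calls dropped from 8 to 3 without Vehicle replicate 1, without inhibitor replicate 1 or without inhibitor replicate 3, against 7 to 10 of the non-glycolytic targets. Without Vehicle replicate 1 the glycolytic calls lost were Slc2a1, Hk2, Ldha, Tpi1 and Pgam1 (adjusted p = 0.110 to 0.290), and the others Ankrd37 and Higd1a (0.290 and 0.095).

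The promoters of Ak4, Egln3 and Slc16a3, which are HIF targets that fell, and of Ffar4, which is in neither HIF list, are shown to let the core of the HIF response element be looked for in each. They are 300 bases from RefSeq (GRCm38.p6), 250 before and 50 after the first listed start, on the strand of the gene, with ACGTG or GCGTG in capitals on either strand. Ak4 (chr4:101419039-101419338) held it 74 and 36 bases before the start, Egln3 (chr12:54203825-54204124) once, 229 bases before, and Slc16a3 (chr11:120948817-120949116) 27 and 14 bases before, while Ffar4 (chr19:38096829-38097128), which fell as far as Ak4, had no match in this window.
Ak4: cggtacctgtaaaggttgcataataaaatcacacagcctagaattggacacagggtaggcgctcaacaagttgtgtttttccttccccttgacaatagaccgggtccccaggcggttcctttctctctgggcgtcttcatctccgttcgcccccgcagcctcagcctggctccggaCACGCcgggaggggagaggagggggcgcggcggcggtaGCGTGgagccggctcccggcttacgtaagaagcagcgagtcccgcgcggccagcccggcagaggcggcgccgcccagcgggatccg
Egln3: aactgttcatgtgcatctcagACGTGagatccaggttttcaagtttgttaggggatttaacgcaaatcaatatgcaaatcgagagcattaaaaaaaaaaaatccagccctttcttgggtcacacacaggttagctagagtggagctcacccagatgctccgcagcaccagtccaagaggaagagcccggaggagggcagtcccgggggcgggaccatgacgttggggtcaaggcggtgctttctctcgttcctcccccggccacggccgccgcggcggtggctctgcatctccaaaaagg
Slc16a3: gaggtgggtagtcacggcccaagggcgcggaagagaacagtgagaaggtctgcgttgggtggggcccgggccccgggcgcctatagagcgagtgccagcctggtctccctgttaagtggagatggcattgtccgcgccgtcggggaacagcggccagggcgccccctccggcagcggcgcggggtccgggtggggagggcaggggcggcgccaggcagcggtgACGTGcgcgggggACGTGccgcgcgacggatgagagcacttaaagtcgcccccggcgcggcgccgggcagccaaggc
Ffar4: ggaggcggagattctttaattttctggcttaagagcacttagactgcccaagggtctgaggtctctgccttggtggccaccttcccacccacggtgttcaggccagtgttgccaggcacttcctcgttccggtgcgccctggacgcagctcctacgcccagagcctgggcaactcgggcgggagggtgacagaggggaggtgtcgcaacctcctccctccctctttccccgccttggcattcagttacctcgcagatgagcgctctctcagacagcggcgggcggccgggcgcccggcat
Of the 18 HIF targets that fell, 17 held the motif in this window. It was also in 63.8% of the 9691 tested genes with a listed promoter, in 28 of the 43 with a promoter among all that fell (65.1%), in 34 of the 45 among those that rose (75.6%) and in 8 of the 8 among the cholesterol genes that rose. The core TGACG of the cAMP response element was found in 12 of those 43 (27.9%) and in 32.1% of all promoters, and an exact direct repeat of AGGTCA spaced by 1 base in 1 of the 43, Isca1, and in 4 of all. Fewer than 80% of the tested genes (79.7%), of the genes that rose (45 of 59) and of the cholesterol genes that rose (8 of 12) had a listed promoter, so the comparison of these shares is void and nothing is drawn from it.

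Genes of cholesterol synthesis rose together, on a list also drawn up with earlier results of these data known. Of 23 tested SREBP2 targets 12 rose and none fell, beside 0.485% and 0.428% of all genes. All 23 had positive log2 fold changes, with a median of 0.55. In 17 of the 23, among them the 12 called, the 3 inhibitor samples lay above the 3 Vehicle samples, against 8.03% of all genes. Cyp51, which demethylates lanosterol, had the largest rise of the list. It was counted at 141.1, 144.6 and 153.6 CPM in Vehicle and at 250.5, 274.3 and 232.1 CPM with inhibitors, a log2 fold change of 0.78 ± 0.06 (adjusted p = 1.38e-07). Sqle, which opens the committed part of sterol synthesis, rose from 94.3, 101.3 and 89.0 CPM to 149.1, 158.0 and 139.3 CPM (0.65 ± 0.08, adjusted p = 8.83e-05), and Insig1, which holds SREBPs in the endoplasmic reticulum and is itself an SREBP target, from 859 ± 52.3 to 1293 ± 106 CPM (0.59 ± 0.07, adjusted p = 6.26e-05). Sc5d, Idi1, Lss, Msmo1, Hsd17b7, Nsdhl and the sterol carrier Stard4 also rose, with log2 fold changes of 0.48 to 0.64.

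None of these rises reached 2-fold, and in all 12 genes the groups did not overlap, as in every called gene. Fdps and Mvd had changes of the same size, 0.61 ± 0.15 and 0.66 ± 0.17, with wider errors and adjusted p = 0.061 and 0.078. Srebf2, which encodes SREBP2, had a log2 fold change of 0.17 ± 0.07 (95% interval 0.03 to 0.32, adjusted p = 0.34), and Acat2 and Ebp had values of 0.02 ± 0.06 and 0.07 ± 0.07. The calls depended little on the fit. Their number ranged from 11 to 16 over 18 other fits, and 11 of the 12 genes were called in every one of them.

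**Figure D3:**
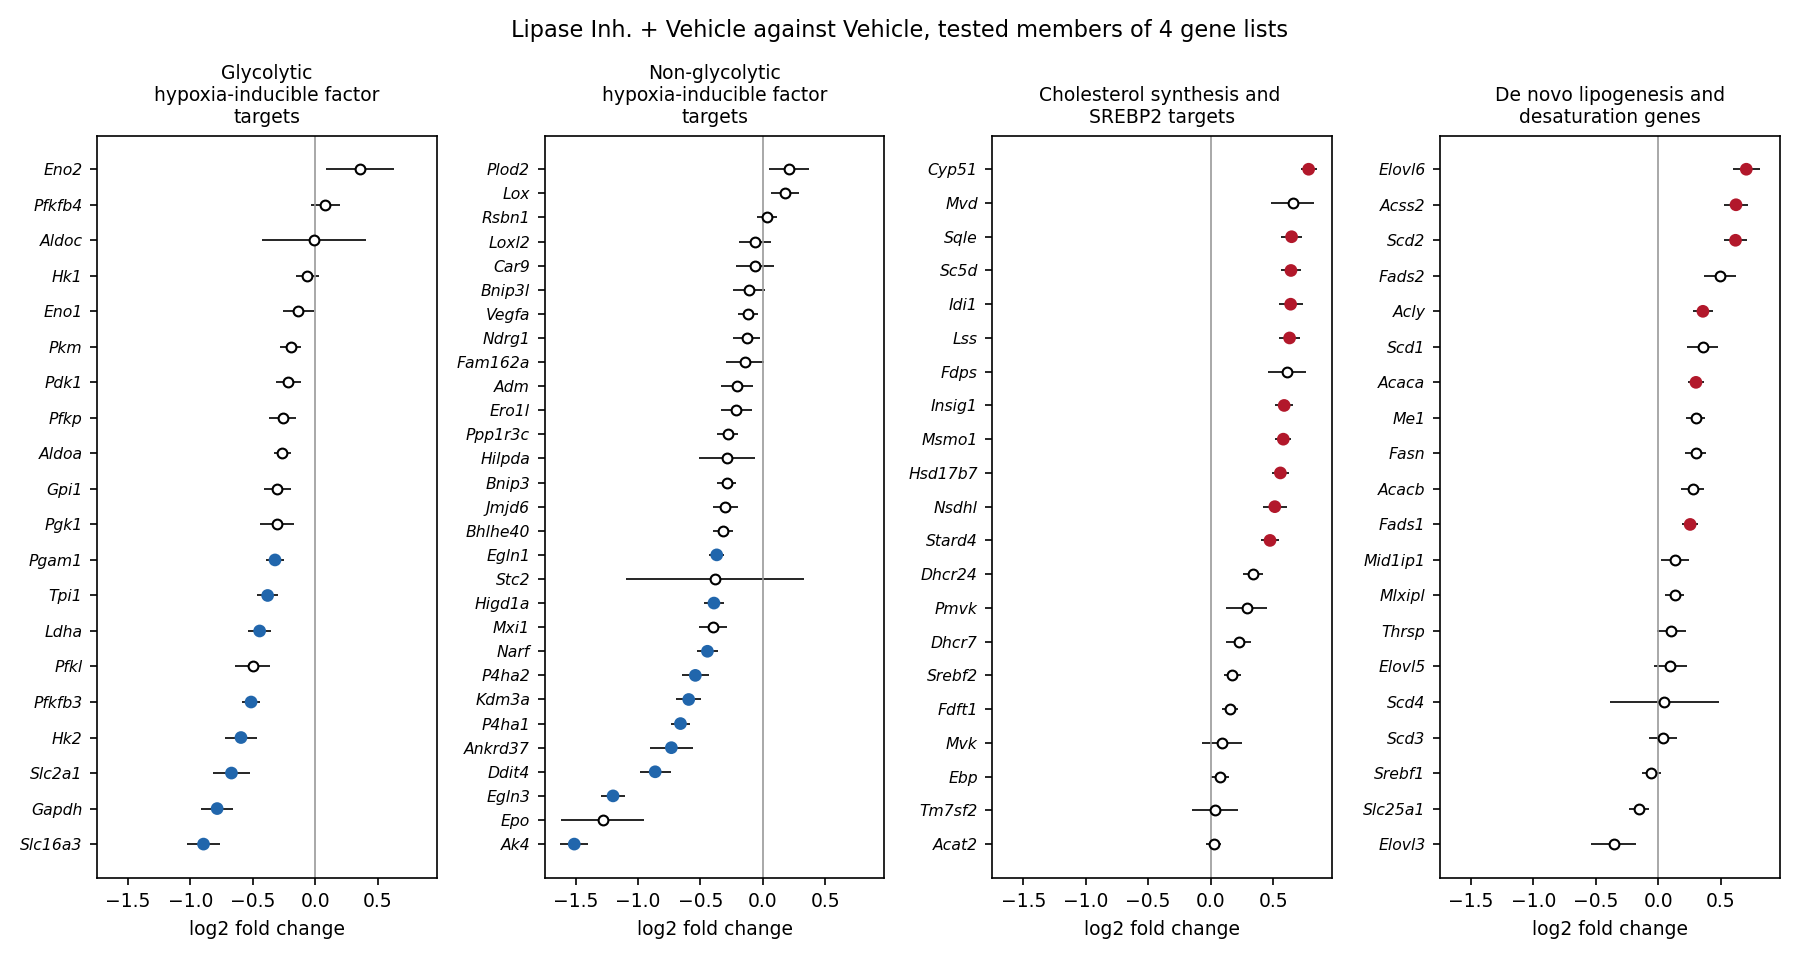
Log2 fold change with SE of Lipase Inh. + Vehicle against Vehicle for tested members of 4 gene lists (all but 2 of the cholesterol list), with filled points for genes at an adjusted p of at most 0.05. The points of both HIF lists reach to the left of 0, where 8 of 20 and 10 of 29 are filled, and all points drawn of the cholesterol list and 17 of the 20 of the lipogenesis list lie to the right of 0.

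Genes of fatty acid synthesis and desaturation moved the same way by smaller amounts, and their list was drawn up likewise. Of 20 tested, 6 rose and none fell, beside 0.485% and 0.428% of all genes. Positive values were found in 17, and the median log2 fold change was 0.26. Elovl6, which elongates palmitate, rose from 14.2, 16.3 and 16.7 CPM to 23.7, 26.7 and 26.2 CPM (0.70 ± 0.11, adjusted p = 0.00073). Acss2 and Acly, the 2 enzymes that make cytosolic acetyl-CoA, rose by log2 values of 0.62 ± 0.09 and 0.36 ± 0.08. Scd2, a stearoyl-CoA desaturase and an abundant transcript, was at 6104, 6340 and 5980 CPM in Vehicle and at 9558, 10718 and 8006 CPM with inhibitors. Acaca, the carboxylase that commits acetyl-CoA to fatty acids, and Fads1, a desaturase of polyunsaturated fatty acids, rose by 0.30 ± 0.06 and 0.26 ± 0.06. The calls of Acaca and Fads1 were lost without Vehicle replicate 1 (adjusted p = 0.096 and 0.174). Fasn and Scd1 had values of 0.30 ± 0.09 and 0.35 ± 0.12 and did not pass the test (adjusted p = 0.13 and 0.22), although in both the groups did not overlap. Srebf1, whose product drives this pathway, had a value of -0.05 ± 0.08 (95% interval -0.22 to 0.11). Scd2 was also the 1 gene called of 11 LXR targets, whose median was -0.009, with Abca1 at -0.01 ± 0.11 and Apoe at -0.43 ± 0.20.

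The list of receptors for fatty acids and other metabolites was drawn up with earlier results of these data known. Of its 10 tested genes 5 fell and none rose, beside 0.428% and 0.485% of all genes. Beside Ffar4 and Gpr35 these were Ffar2, a receptor for short-chain fatty acids, which fell from 31.1 ± 3.49 to 20.2 ± 4.03 CPM (-0.64 ± 0.13, adjusted p = 0.015), the adenosine receptor Adora1, which fell from 187 ± 21.1 to 135 ± 16.7 CPM, and Hcar2, the receptor for hydroxybutyrate and niacin, which fell from 60.6 ± 3.97 to 46.4 ± 2.85 CPM. Adora1 and Hcar2 are known to restrain lipolysis in adipocytes. The lactate receptor Hcar1 had a value of -0.10 ± 0.08 (95% interval -0.26 to 0.06), and the lysophosphatidic acid receptors Lpar1, Lpar4 and Lpar6 had positive values of 0.11 to 0.29 that did not pass. Without Vehicle replicate 1, Ffar4 was the 1 receptor of the 5 still called. Adora1 overlaps Mybph on the other strand.

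Other groups tied to lipolysis showed few calls or none. None of 36 targets of the fatty acid-activated receptors PPARα, PPARδ and PPARγ was called in either direction (edgeR), and their median was -0.09, with 23 negative values. Of all genes only 0.485% were called higher and 0.428% lower. The values ran from -2.575 to 0.23, and the lowest was also the lowest of all tested genes, though it did not pass the test. The groups lay apart in 4 of the 36 that were lower and 1 that was higher, beside 7.4% and 8.03% of all genes. Nothing is drawn from these counts. Pdk4, a PPAR target that responds strongly to fatty acids, had a log2 fold change of 0.10 ± 0.09 (95% interval -0.09 to 0.29), Fabp4 of -0.12 ± 0.10, Acsl1 of -0.24 ± 0.07 and Lpl of 0.01 ± 0.11. None of 18 lipase genes and lipase regulators was called. Pnpla2 and Lipe, which encode the 2 inhibited enzymes, had values of -0.23 ± 0.07 and -0.25 ± 0.08 (adjusted p = 0.15 and 0.14) with groups that did not overlap, at 2108 and 1802 CPM for Pnpla2. Lipid droplet genes (0 of 14) and triglyceride synthesis genes (0 of 16) were not called either, with medians of -0.09 and -0.15, Cidec at -0.31 ± 0.09 and Dgat2 at -0.28 ± 0.10. Plin4 had a positive value of 0.21 ± 0.13.

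Of all genes 0.428% fell and 0.485% rose, beside which the list counts here stand. Of 21 thermogenic genes 1 fell. It was Kcnk3, a potassium channel of brown adipocytes, which went from 836.7, 808.4 and 726.4 CPM to 543.9, 628.5 and 543.5 CPM (-0.47 ± 0.07, adjusted p = 0.00045). Adrb3, the β3-adrenergic receptor, had a value of -0.06 ± 0.15, and Ppargc1a of 0.26 ± 0.08 (adjusted p = 0.20). Of 22 cAMP and CREB targets 1 fell, Pde3b, the phosphodiesterase through which insulin lowers cAMP, from 577 ± 13.7 to 432 ± 10.2 CPM (-0.42 ± 0.06, adjusted p = 0.00045). Of 18 genes of the xenobiotic and NRF2 response 1 rose, Gclm, a subunit of the enzyme that limits glutathione synthesis (0.27 ± 0.06, adjusted p = 0.028, or 0.167 without Vehicle replicate 1), and 16 of the 18 values were positive. None was called among 19 clock genes, 24 markers of the unfolded protein response or 17 FOXO and insulin response genes, with medians of 0.08, 0.04 and 0.11. Nr1d1, the clock repressor REV-ERBα, had a value of 0.04 ± 0.10 and Ddit3, the stress factor CHOP, of 0.18 ± 0.07 (adjusted p = 0.34). The 11 mature adipocyte markers tested held no call, but 10 had negative values, with Adipoq, the gene for adiponectin, at -0.24 ± 0.08 and Fabp4 at -0.12 ± 0.10. The part of this shift in the falls described above was not tested. None was called of 9 brown adipocyte markers or of 10 preadipocyte and fibroblast markers.

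Of the 59 genes that rose, 39 were in none of the lists, and of the 52 that fell, 25 were in none. The largest rise above a log2 CPM of 3 was that of Prune2, from 20.6, 31.8 and 27.6 CPM to 52.3, 63.3 and 38.7 CPM (0.95 ± 0.17, adjusted p = 0.0037). Gprin3 (0.71 ± 0.14), the scaffold gene Tanc2 (0.68 ± 0.10) and Slc5a3, the myo-inositol transporter (0.65 ± 0.10), completed the 12 largest rises. Slc5a3 overlaps Mrps6 on the same strand and its counts may hold reads of that gene. Among the 12 largest falls outside the lists, Pvrl2, an adhesion molecule also called nectin 2, fell from 44.4 ± 4.19 to 26.6 ± 2.4 CPM (-0.75 ± 0.10, adjusted p = 0.00033) and Tmem82 from 18.3 ± 2.18 to 10.7 ± 1.30 CPM (-0.77 ± 0.14, adjusted p = 0.0044). The calls for Prune2 and Tmem82 were lost without Vehicle replicate 1 (adjusted p = 0.055 and 0.060), and that for Gprin3 too (0.11).

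The small shifts ran with gene length. Log2 fold changes over the 4 quartiles of genes by counted length had medians of -0.08 in the shortest (up to 1773 bases), -0.03, 0.01 and 0.07 in the longest (from 4230 bases). Of the genes called higher, 36 of 59 were in the longest quartile and 1 in the shortest, while the genes called lower were spread as 12, 18, 12 and 10. The median counted length was 4574 bases for the genes that rose, 2679 for those that fell and 2794.5 for all. Gene families of short transcripts were shifted down with no call in them. Cytosolic ribosomal protein genes (median length 638 bases) had negative values in 72 of 79, with a median of -0.15, and the subunits of oxidative phosphorylation (671 bases) in 72 of 81, with a median of -0.10. Mitochondrial ribosomal protein genes (1051 bases) had negative values in 67 of 77. Collagen, laminin and other matrix genes (5912 bases) had positive values in 24 of 36, with a median of 0.05 and no call. Genes of the Zfp zinc fingers, with a median length of 3451.5 bases, had positive values in 203 of 310, with a median of 0.06. They held 1 call (0.323%, beside 0.485% of all genes called higher), Zfp329 (adjusted p = 0.257 without Vehicle replicate 1). Without that replicate the longest quartile held 15 of the 28 higher genes.

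The trend differed between samples of a group as much as between groups. The slope of a sample's log2 CPM deviation on log2 length was -0.082, -0.015 and 0.012 per doubling in the 3 Vehicle samples and 0.036, 0.005 and 0.044 in the 3 inhibitor samples. The means were -0.028 ± 0.049 and 0.028 ± 0.021 (SD, n = 3 each), and the difference of 0.056 had p = 0.2 in a two-sided exact permutation test, whose smallest possible p is 0.1. Vehicle replicate 1 had the steepest slope of the 6, and without it the difference was 0.029 (p = 0.3, exact permutation test).

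The trend was then taken out of the counts of each sample. After this correction 42 genes were higher and 59 lower, of which 39 and 49 were among the genes called without it, and the longest quartile held 18 of the higher genes. All 12 cholesterol genes called before were still called, and 4 of them were in the longest quartile. Of the 6 lipogenesis genes 3 were still called, and the calls of Acaca, Acly and Fads1 were lost (adjusted p = 0.416, 0.129 and 0.085). Of the 41 called higher genes outside the cholesterol and lipogenesis lists, 28 were in the longest quartile, 24 were called after the correction and 11 without Vehicle replicate 1. Of the 18 HIF targets that fell, 17 were called after the correction and 11 without Vehicle replicate 1.

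**Figure D4:**
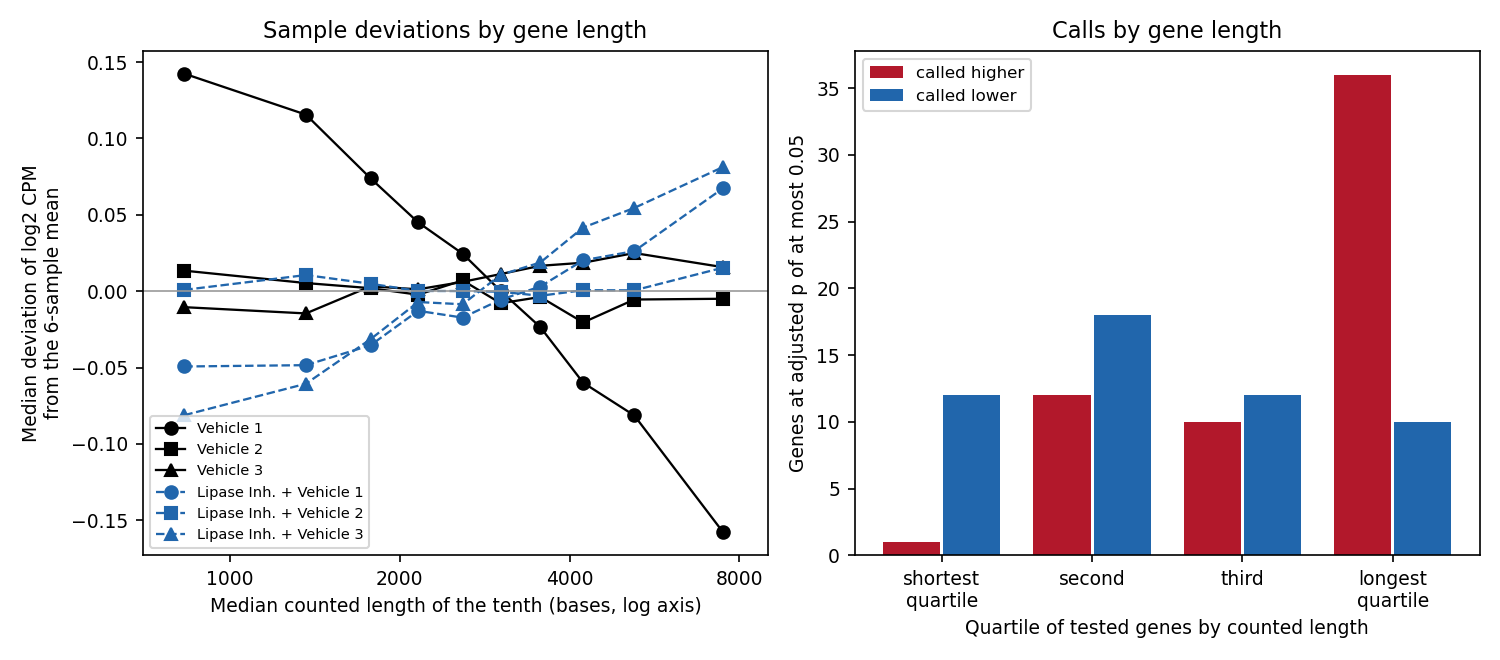
Left, median deviation of log2 CPM from the mean of the 6 samples in 10 bins of genes by counted length (log axis), with Vehicle samples in solid black and Lipase Inh. + Vehicle samples in dashed blue. Right, number of genes called higher (red) and lower (blue) in each quartile of length. Vehicle replicate 1 falls from left to right while inhibitor replicates 1 and 3 rise, and 36 of the 59 higher calls are in the longest quartile.

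Whether the inhibitors act on the same genes when lipolysis is stimulated was asked with 12 other samples, in which Lipase Inh. + ISO was compared with ISO and Lipase Inh. + SR-3420 with SR-3420. These comparisons share no sample with the one above, though the spread was estimated over all 18. With SR-3420, 36 of the 52 genes that fell with inhibitors alone fell again (69.2%, against 20.9% of all genes called lower there). Another 4 rose (7.69%, against 18.9% of all genes). The 36 were 1.42% of the genes called lower with SR-3420. With ISO, 20 of the 52 fell again (38.5%, against 21.6% of all genes) and 17 rose (against 21%). Of the 59 genes that rose with inhibitors alone, 20 rose with SR-3420 (33.9%, against 18.9% of all genes) and 13 fell (22%, against 20.9%). With ISO, 21 of the 59 rose (35.6%, against 21% of all genes) and 25 fell (42.4%, against 21.6%). The effect of the inhibitors differed from that in unstimulated cells, by the interaction term, in 86 of the 111 genes with ISO and in 60 with SR-3420 (adjusted p over all genes). These genes were picked by their change with inhibitors alone, which is part of the interaction term. The choice of genes therefore bears on both counts, the share over all genes is not given, and nothing is drawn from them. The library of inhibitors with SR-3420, replicate 2, was the shallowest, with 4263755 counts, and without it 35 of the 52 lower genes fell again with SR-3420.

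Most HIF targets fell also in cells driven with SR-3420, where 20.9% of all genes fell and 18.9% rose. There 14 of the 20 glycolytic targets fell and none rose, with a median of -0.53, and 19 of the 29 others fell and 5 rose. With ISO, 3 glycolytic targets fell and 5 rose, beside 21.6% and 21% of all genes. Of the 29 others, 10 fell and 5 rose with ISO, with a median of -0.14. Ak4 had log2 fold changes of -0.68 ± 0.10 with inhibitors on ISO (edgeR adjusted p = 6.6e-06) and -1.36 ± 0.11 with inhibitors on SR-3420. Egln3 averaged 570 ± 16.1 CPM with SR-3420 and 252 ± 28.4 CPM with SR-3420 and inhibitors (SD, n = 3 each), and the log2 fold change of -1.17 ± 0.09 differed from that in unstimulated cells by 0.03 (adjusted p = 0.91, interaction). With ISO it averaged 659 ± 23.8 and 578 ± 14.3 CPM (-0.19 ± 0.09, adjusted p = 0.10). Slc16a3 went from 25.1 to 7.09 CPM with inhibitors on SR-3420 and from 46.3 to 61.8 CPM with inhibitors on ISO. Narf, called lower alone, was higher in both stimulated settings, by log2 values of 1.04 with ISO and 0.98 with SR-3420. Ffar4 fell from 138 to 89.1 CPM with SR-3420 (-0.62 ± 0.09) and rose from 359 to 440 CPM with ISO (0.29 ± 0.09, adjusted p = 0.0092).

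In stimulated cells the sterol genes were called in both directions. Of the 23 genes of the cholesterol list, 7 rose and 10 fell with ISO, with a median of -0.13, where 21% of all genes rose and 21.6% fell. With SR-3420, 5 rose and 6 fell, with a median of 0.05, where 18.9% of all genes rose and 20.9% fell. Insig1 was the extreme. It averaged 859 CPM in Vehicle and 1293 CPM with inhibitors alone, but 1848 ± 90.7 CPM with ISO and 186 ± 12.9 CPM with ISO and inhibitors, a log2 fold change of -3.31 ± 0.08 (adjusted p = 6.97e-18). With SR-3420 it went from 1770 ± 51.4 to 1108 ± 29.1 CPM. Cyp51 averaged 300 ± 3.67 CPM with ISO and 298 ± 7.59 CPM with ISO and inhibitors. The difference between the effect of the inhibitors with ISO and alone was -0.79 for Cyp51 (adjusted p = 5.51e-07), -0.78 for Sqle (adjusted p = 1.78e-05) and -3.90 for Insig1 (adjusted p = 9.96e-17). These genes were picked among those that rose with inhibitors alone, and that rise enters each difference. Their choice is therefore not independent of these interaction tests.

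**Figure D5:**
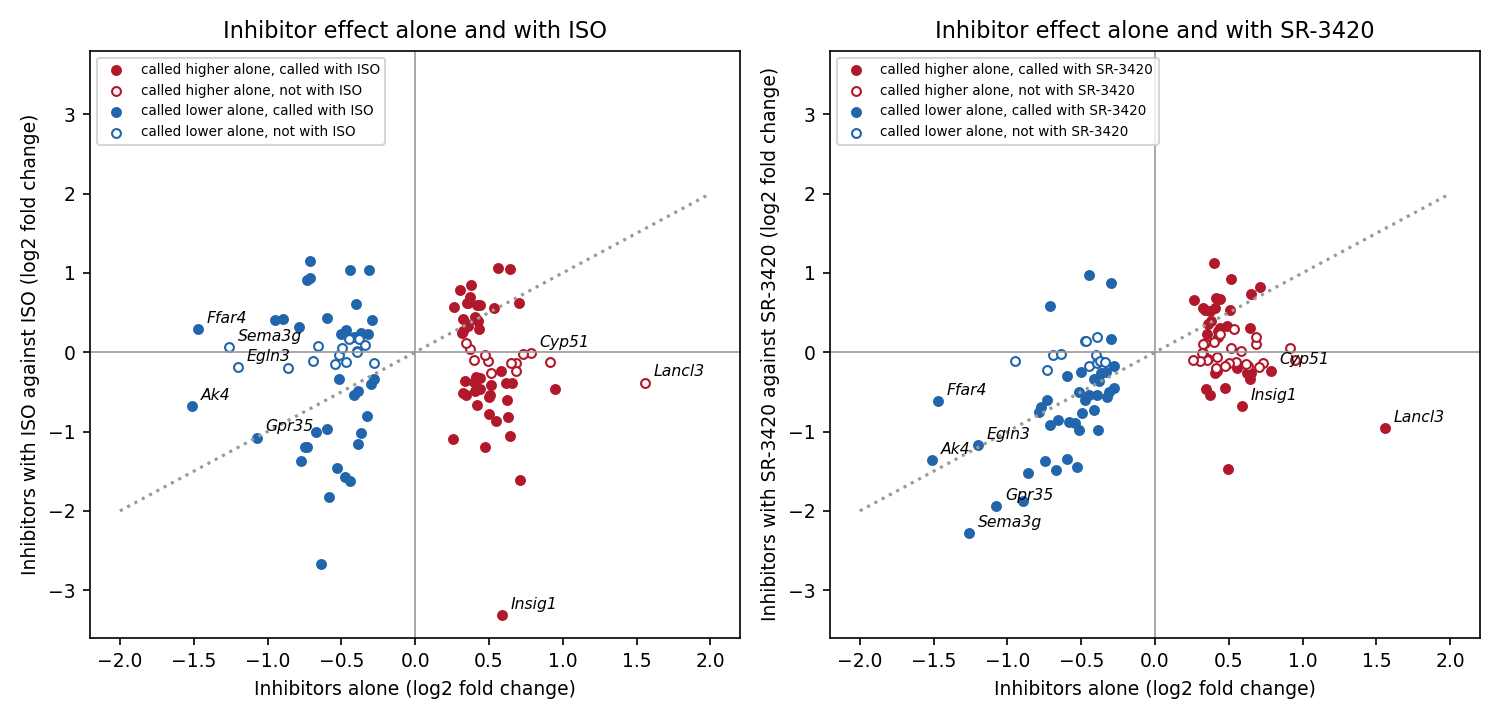
Log2 fold change of the inhibitors in ISO-treated cells (left) and SR-3420-treated cells (right) against that of the inhibitors alone, for the 59 genes called higher alone (red) and the 52 called lower alone (blue), with filled points for genes also called in the stimulated cells and a dotted line of equal change. On the right most blue points lie below 0 (36 called lower), while on the left blue and red points spread to both sides of 0.

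ISO and SR-3420 by themselves were compared with the same Vehicle samples as the inhibitors, so these values stand only side by side. Ak4 had log2 fold changes of -1.51 with inhibitors, 1.33 with ISO and 0.53 with SR-3420, Egln3 of -1.20, 1.26 and 1.05, and Sema3g of -1.26, 2.02 and 1.71. Ffar4 had -1.47, 1.75 and 0.37. Cyp51, which rose with inhibitors, had 0.78, 1.03 and 0.47, and Sqle 0.65, 1.32 and 0.45. Apln, by contrast, had -0.95 with inhibitors, 0.69 with ISO and -0.47 with SR-3420.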

How the data were processed

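Total RNA of 18 BAT-LgT cultures was sequenced from TruSeq libraries. The authors aligned reads with STAR 2.4.2a to mm9 (the submitters' processing notes), kept 1 read per position and length with HOMER, and deposited raw counts per gene for 20295 genes, made with iRNA-seq. Whether counting used strand is not given in the sources used here, and removing repeated positions limits the counts of abundant short genes. Counts were read as deposited, with columns matched by sample number, and the count table held 0 columns of other samples. Genes passing filterByExpr (minimum count 10, minimum total 15) were tested in edgeR 4.0.16 (R 4.3.3, TMM factors 1.09 to 1.12 in Vehicle and 1.08 to 1.09 with inhibitors, quasi-likelihood test over all 18 samples with a mean for each group and no covariate). Contrasts and interactions came from this fit. DESeq2 1.42.0, other scalings, filters, sample sets and corrections for length and GC content (93.5% of genes had a GC value) were alternatives. The script was tested on simulated data. The study's methods describe 3 independent experiments, and the thresholds (adjusted p of at most 0.05, absolute log2 fold change of at least 1) are theirs. Named genes were Ffar4, Ak4 and Egln3, every gene past both thresholds, the 12 largest changes per direction at log2 CPM of at least 3 with the same sign in all 3 same-numbered pairs, and list members that passed or, where none did, those with the highest levels. Genes named beyond this rule were chosen after their values were seen. The genes and lists were chosen with earlier results of these data known. Length trends were lowess fits (span 0.3) of each sample's log2 CPM deviations (prior count 2). A 95% interval is the log2 fold change with its SE times the quantile of the moderated distribution. Limits on precision are those of 3 samples a group. Inhibitor doses are not used here. Some members of the cholesterol list are not reported here by name.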

Additional observations from a re-analysis of the deposited data

Results flagged for a closer look

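Among the genes past both thresholds with inhibitors alone, 9 differences between the effect of the inhibitors in stimulated and in unstimulated cells passed the interaction test, given here as log2 difference (stimulated minus alone) with SE and edgeR adjusted p. The genes were picked by their change with inhibitors alone, which enters each difference, so their choice is not independent of these tests. With ISO the difference was 1.76 ± 0.13 for Ffar4 (adjusted p = 1.03e-09), 1.01 ± 0.13 for Egln3 (4.16e-06), 0.83 ± 0.15 for Ak4 (0.00017) and 1.32 ± 0.19 for Sema3g (1.55e-05), each against a fall alone. For Lancl3, which was counted at under 3 CPM, it was -1.94 ± 0.50 (0.0047) with ISO and -2.51 ± 0.49 (0.0006) with SR-3420. With SR-3420 the difference was 0.85 ± 0.13 for Ffar4 (6.17e-05), -1.02 ± 0.21 for Sema3g (0.00082) and -0.87 ± 0.32 for Gpr35 (0.048), so that Ffar4 fell less there than alone and the other 2 fell further.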

How the results depend on the processing

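No called gene changed sign in any of 18 alternative fits. Of the 59 higher and 52 lower genes, 19 and 19 were called in every one. Counts of genes called higher and lower were 29 and 40 with total counts as scaling, 24 and 23 with only the 6 samples, 24 and 25 with these thinned to 10398646 counts, and 122 and 99 in DESeq2 (54 and 49 shared). The replicate block gave 147 and 122, with all 111 kept. With the replicate block and length correction they were 109 and 125, and with GC correction too 144 and 166. Past both thresholds, Lancl3 was the 1 higher gene. None passed with total counts, only the 6 samples, thinning, length correction alone or DESeq2 (0 each, beside 746 higher genes at an unadjusted p of at most 0.05), and 2 with each replicate block fit. The block with length and GC correction gave 8 lower ones. Glycolytic HIF targets called were 5 with total counts or thinning and 4 with only the 6 samples. Leaving out 1 replicate gave 28 to 82 higher and 28 to 68 lower genes, 0 to 2 higher past both thresholds, and 3 to 9 glycolytic targets. Leaving out Vehicle replicate 3 gave 82 and 68. The slope difference stayed positive, from 0.027 to 0.077. Of 450 refits of 25 named genes, 27 lost the call, all of Lancl3, Ankrd37, Gpr35, Gprin3, Tmem82 or Prune2, and for the first 4 of these DESeq2 gave no adjusted p. The cause was not tested, except that thinning and smaller sample sets hold fewer counts or samples. Same-numbered samples shared deviations with r = -0.027, 0.16 and 0.26, and so few samples cannot settle whether the numbers pair them. The main fit took the samples as unpaired, and the replicate block gave more calls in both directions. Vehicle replicates 2 and 3 correlated best with their own number, and Vehicle replicate 1 did not. Genes near 1 CPM, such as Lancl3, are limited by depth.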
